A study of Mus musculus with 12 samples.

Results

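Macroautophagy is the route by which a cell wraps part of its own cytoplasm in a double membrane, the autophagosome, and delivers it to the lysosome for breakdown. A kinase complex built around ULK1 or ULK2 and a lipid kinase complex of Beclin 1, VPS34 and VPS15 start the membrane, conjugation enzymes attach proteins of the LC3 and GABARAP families to it, and receptors such as p62 and optineurin bring in ubiquitin-marked cargo or mitochondria. The autophagosome then fuses with a lysosome, whose membrane proteins and acid hydrolases finish the work, and the transcription factors TFEB and TFE3 switch on many of these genes. In skeletal muscle the pathway clears damaged proteins and organelles, and an inherited lack of the lysosomal enzyme encoded by Gaa is a muscle disease. The 40 genes described here were the rows of all 12 libraries whose symbol was on a list of 40 autophagy and lysosome genes, out of 23923 genes in the files. The list holds 10 genes of initiation and nucleation, 8 of the conjugation machinery, 5 of the LC3 and GABARAP family, 5 cargo receptors, 2 transcription factors and 10 genes for lysosomal membrane proteins and enzymes. All 40 were found and all 40 passed the filter on low values.

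RNA from the tibialis anterior, a fast muscle of the lower leg, was sequenced in 6 control mice and 6 Smyd1 conditional knockout (CKO) mice aged 6 weeks, with 1 library for each mouse. Controls were Myf6 cre/+; Smyd1 flox/+ and CKO mice were Myf6 cre/+; Smyd1 flox/-, all of strain C57BL6/J;129S1/SvImJ. Smyd1 encodes a muscle histone methyltransferase and myosin-binding protein, and the question was which genes differ in muscle that loses it. Both groups therefore carried the Cre knock-in at Myf6, which acts in myofibers and not in the other cells of the muscle, and both carried a floxed allele, while the null allele of the CKO mice is present in every cell. By the cross in the study's methods, both groups also carried a Rosa26 YFP reporter allele. The study states that the experiments reported after its muscle histology, which include the RNA sequencing, used male tissue only.

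Values are FPKM (fragments normalized to transcript length and to the mapped fragments of the library), so levels can be compared between genes on a per-length scale. The number of reads in a library is unknown, and relative depth, judged by the spacing of the smallest FPKM values, ran from 0.983 to 1.77 of that of control 1. Smyd1 itself had 32.9 to 47.1 FPKM in controls and 27.8 to 39.9 FPKM in CKO mice (log2 fold change -0.13, limma adjusted p = 0.545), and these levels, which cover the whole gene, overlapped between the groups. By western blot the study found no detectable SMYD1 protein in CKO tibialis anterior. The 6 myofiber markers, which include the fast-fiber gene Myh4 and also genes of every skeletal fiber such as Acta1 and Ckm, fitted the labelled tissue, with a summed level of 17166 to 26164 FPKM over the 12 libraries. Of these, Myh4 was higher in the CKO and Acta1 lower at an unadjusted p under 0.05 as deposited, against 18.1% and 1.76% of all genes. After the median-ratio scaling described below, 1 of the 6 was higher and 3 were lower, against 6.63% and 7.4%. Control 1 stood apart from the other 5 controls. Its 8 fibroblast markers summed to 884.7 FPKM against 234.4 to 296.9 in the other controls and 309.5 to 525.2 in CKO mice, and its 13 macrophage markers to 57.2 against 14.1 to 23.9 and 19.1 to 35.1. All 6 slow-twitch markers were higher in the CKO at an unadjusted p under 0.05 as deposited, against 18.1% of all genes. After median-ratio scaling 5 of the 6 were, against 6.63%. Their sum as deposited was 8.62 to 29.8 FPKM in controls and 14.5 to 265.6 in CKO mice. It lay above all controls in 3 of 6 CKO mice. Over all 12695 genes tested the median log2 fold change, CKO minus control, was 0.18, and 77.9% of genes had a positive value. Counts, and members called in either fit, are therefore given both as deposited and after median-ratio scaling. This scaling divides each library by its median ratio to the geometric mean of the 12 and brought that median to 0.01. Other values are as deposited unless stated, and scaling reversed the sign of 15 of the 40 genes. In bulk muscle, fewer cells of a type and less RNA per cell cannot be told apart.

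TFEB and TFE3 bind an E-box within a longer sequence shared by many lysosomal genes, and the promoters of the lysosomal members are shown for that reason. RefSeq promoters of build GRCm38.p6, from 250 bases before to 50 bases after the start site, were matched by symbol for 33 of the 40 genes. The E-box CACGTG, which reads the same on both strands, was present in 10 of the 33 (30.3%) and in 5 of the 9 matched lysosomal genes, against 8.09% of 27025 genes. The extended form TCACGTGA, which contains it, was in 3 of the 33 (Atg3, Ctsa and Ctsd; 9.09%), against 1.12% of all genes. The longer sequence itself, searched as a fixed run of letters that contains the extended form, was in 0 of the 33. It was in 0 of the 9 matched lysosomal genes, against 0.37% of all genes. The E-box and the extended form were searched on both strands. The runs below are the parts of the lysosomal promoters upstream of the start site that hold an E-box, 5′ to 3′ on the strand of the gene, with each CACGTG in capitals.

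Lamp1, plus strand, chr8:13159080-13159160: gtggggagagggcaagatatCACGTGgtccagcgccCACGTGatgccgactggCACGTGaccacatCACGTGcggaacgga
Ctsd, minus strand, chr7:142387900-142387945: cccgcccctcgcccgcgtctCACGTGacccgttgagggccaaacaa
Ctsa, plus strand, chr2:164833741-164833772: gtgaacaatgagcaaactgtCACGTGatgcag
Ctsl, minus strand, chr13:64370731-64370770: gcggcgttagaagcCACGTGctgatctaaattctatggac
Gaa, plus strand, chr11:119267803-119267848: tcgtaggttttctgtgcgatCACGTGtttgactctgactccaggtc

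Lamp1 held 4 E-boxes within the 81 bases before its start site, more than any other of these promoters. Ctsd and Ctsa carried the extended form in the runs shown, and Ctsd held another E-box at position -245 from its start site. Of the 10 genes with an E-box, 9 had a positive log2 fold change with the FPKM as deposited, against 77.9% of all genes: Lamp1, Ctsa, Ctsl, Gaa, Atg14, Atg3, Atg5, Atg7 and Bnip3. Ctsd had a negative value. After scaling 5 of the 10 were positive, against 51.3% of all genes: Lamp1, Ctsa, Ctsl, Atg14 and Atg7. A match is a description of the letters in this window, not a site that was shown to be bound.

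With the FPKM as deposited, 8 of the 40 genes were higher in the CKO at an unadjusted p under 0.05, a level that 18.1% of all genes tested reached in that direction. These were the lipid kinase subunit gene Pik3r4, Map1lc3a, Gabarap, Lamp1, Lamp2, Ctsb, Ctsl and Hexa. Optn alone was lower, where 1.76% of all genes were. None of the 40 passed an adjusted p of 0.05 in limma in either direction, against 2.02% of all genes higher and 0.268% lower. The median log2 fold change over the 40 was 0.15, close to the 0.18 of all genes, and 34 of the 40 values were positive, against 77.9% of all genes. After median-ratio scaling, Ctsl and Hexa were higher at an unadjusted p under 0.05, against 6.63% of all genes, and Ulk2, Sqstm1, Optn and Ctsd were lower, against 7.4%. Sqstm1 and Optn also passed the adjusted threshold, which 0.701% of genes passed in that direction. The median over the 40 was then -0.03, and 19 of the 40 were positive, against 51.3% of all genes. No member had all 6 CKO values above all 6 controls in either fit, where 2.23% of all genes did as deposited and 0.788% after scaling. Ctsl, Hexa and Optn were past the unadjusted threshold in both fits, and the other members called in one fit were not called in the other.

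**Figure D1:**
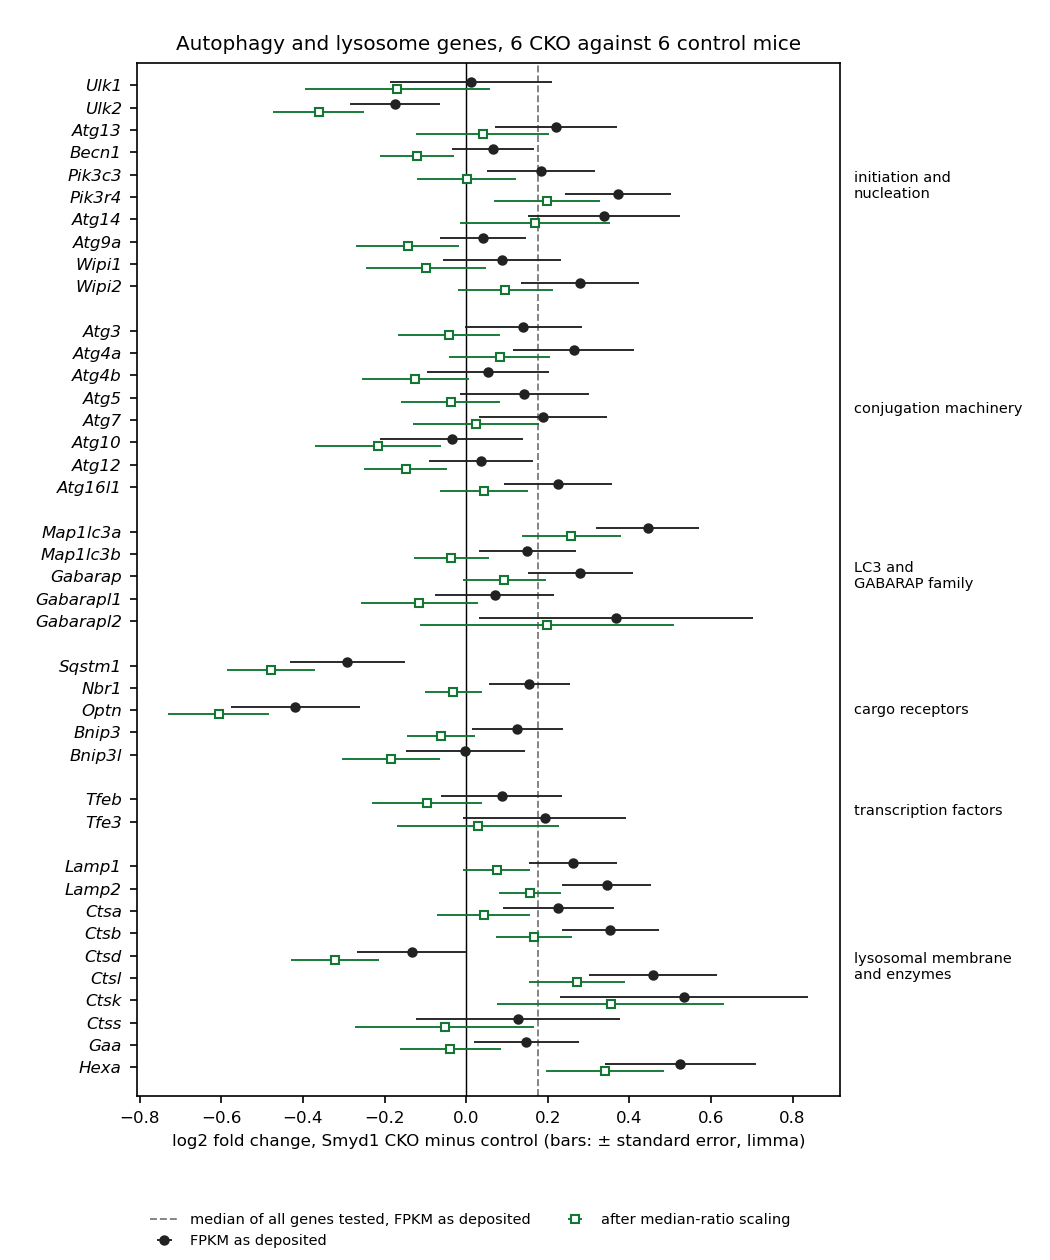
Log2 fold change (Smyd1 CKO minus control, x axis) of each of the 40 genes, grouped by role, with FPKM as deposited (filled circles) and after median-ratio scaling (open squares); bars are ± the standard error from limma, and the dashed line is the median of all genes tested, 0.18. With the FPKM as deposited 34 of 40 genes lie right of 0, and after scaling 19 do, with Sqstm1 and Optn farthest to the left.

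Control 1 had the highest control value for 31 of the 40 genes, and its median deviation from the mean of a gene was 0.28 on the log2 scale, while control 2 was the lowest control for 16 genes. Without control 1, and with the FPKM as deposited, 17 of the 40 were higher at an unadjusted p under 0.05, against 27.2% of all genes, and 1 was lower, against 1.79%. Of those 17, 7 passed the adjusted threshold, against 8.56% of all genes: Map1lc3a, Lamp1, Lamp2, Ctsa, Ctsb, Ctsl and Hexa. Their log2 fold changes without control 1 ran from 0.33 for Lamp1 to 0.68 for Hexa. Without control 1 and after scaling, Ctsl was higher and Ulk2, Sqstm1 and Optn were lower at an adjusted p under 0.05, against 1.45% and 1.48% of all genes, and at the unadjusted threshold 4 were higher and 6 lower, against 8.7% and 9.08%. The part of the fibroblast and macrophage content of control 1 in these counts was not tested.

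**Figure D2:**
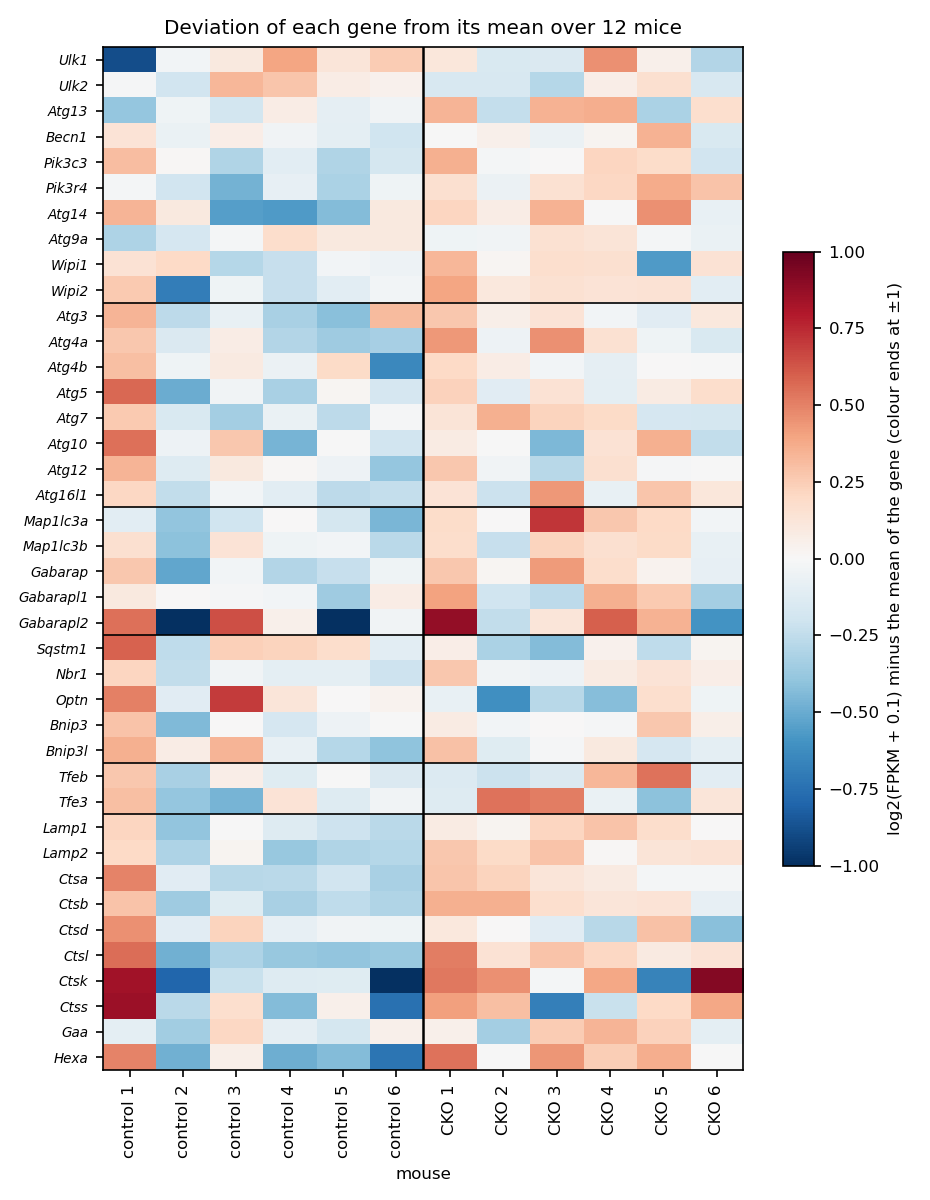
Deviation of log2(FPKM + 0.1) of each gene (rows, grouped by role) from its mean over the 12 mice (columns), in log2 units; red is above and blue below the mean, and the colour ends at 1 in either direction. The column of control 1 is the reddest of the controls, and it is the highest control for 31 of the 40 genes.

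Among the 10 genes of initiation and nucleation, Pik3r4 was higher at an unadjusted p under 0.05 as deposited, and Ulk2 was lower after scaling. Pik3r4 encodes VPS15, the regulatory subunit that holds the lipid kinase complex together. Its FPKM was 0.871, 1.12 and 1.23 (lowest, median and highest) in controls and 1.19, 1.43 and 1.64 in CKO mice. Among the CKO mice, 5 of 6 lay above all controls. The log2 fold change of Pik3r4 was 0.37 ± 0.13 (SE, n = 6 and 6, limma adjusted p = 0.139) as deposited and 0.20 after scaling (adjusted p = 0.549). Pik3c3, the catalytic VPS34 subunit of the same complex, had a log2 fold change of 0.18 as deposited, Becn1 0.07 and Atg14 0.34, none of them past the unadjusted threshold. After scaling these were 0.00, -0.12 and 0.17. Ulk2, a kinase that starts the pathway, was the most abundant of the 10 genes per length, with a control mean of 13.2 ± 1.77 FPKM (SD, n = 6) against 2.09 ± 0.564 for its relative Ulk1. After scaling, Ulk2 was 11, 14.3 and 16.4 FPKM in controls and 9.39, 10.4 and 12.8 in CKO mice, and 4 of 6 CKO values lay below all controls. Its log2 fold change was -0.36 ± 0.11 after scaling (SE, adjusted p = 0.14) and -0.17 as deposited (adjusted p = 0.384), and it passed the adjusted threshold after scaling in 1 of 12 fits with a mouse left out, that without control 1 (adjusted p = 0.0418). The other genes of the group, Ulk1, Atg13, the lipid scramblase gene Atg9a and the lipid-binding Wipi1 and Wipi2, had log2 fold changes from 0.01 to 0.28 as deposited. After scaling their values ran from -0.17 for Ulk1 to 0.10 for Wipi2.

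None of the 8 conjugation genes passed the unadjusted threshold in either fit. They encode the enzymes that join ATG12 to ATG5 (Atg7, Atg10), load LC3 onto lipid (Atg3, Atg7, and the ATG12, ATG5 and ATG16L1 complex) and trim or remove it (Atg4a, Atg4b). Their log2 fold changes ran from -0.04 for Atg10 to 0.26 for Atg4a as deposited, with a median of 0.14, and from -0.22 to 0.08 after scaling. Atg12, the most abundant of the 8 at 5.35 ± 0.906 FPKM in controls and 5.46 ± 0.713 in CKO mice (SD, n = 6), had a log2 fold change of 0.04 as deposited (adjusted p = 0.901) and -0.15 after scaling. All 6 CKO values of Atg12 lay within the range of the controls. Atg4a shared 63.6% of its 50-base windows with transcripts at another locus, chiefly the copy Atg4a-ps, and its level is uncertain, because multi-mapping reads were dropped.

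All 5 genes of the LC3 and GABARAP family had positive log2 fold changes as deposited, against 77.9% of all genes. Their median was 0.28, against 0.18 over all genes. Of the 5, Map1lc3a and Gabarap passed the unadjusted threshold, against 18.1% of all genes. After scaling 3 of the 5 were positive, against 51.3% of all genes, with a median of 0.09, and none passed the unadjusted threshold. These small ubiquitin-like proteins are joined to the autophagosome membrane and bind the receptors. Map1lc3a was 15.2, 18.3 and 20.9 FPKM in controls (lowest, median and highest) and 20.5, 23.8 and 34.3 in CKO mice. Its groups overlapped only in CKO 6, and the other 5 CKO mice lay above all controls. The log2 fold change of Map1lc3a was 0.45 ± 0.13 as deposited (SE, n = 6 and 6, limma adjusted p = 0.0789) and 0.26 ± 0.12 after scaling (adjusted p = 0.358). Gabarap was 11.5, 15.04 and 19.9 FPKM in controls and 15.6, 17.8 and 22.1 in CKO mice. All 6 CKO values of Gabarap lay above the control median, but only CKO 3 exceeded control 1. Its log2 fold change was 0.28 ± 0.13 as deposited (SE, adjusted p = 0.243) and 0.09 after scaling (adjusted p = 0.757). Map1lc3b, which encodes the LC3 protein most often used as an autophagy marker, was 14.7 ± 2.22 FPKM in controls and 16.3 ± 1.97 in CKO mice (SD, n = 6, log2 fold change 0.15, adjusted p = 0.485). After scaling, the log2 fold change of Map1lc3b was -0.04. Gabarapl1 and Gabarapl2 had log2 fold changes of 0.07 and 0.37 as deposited, with standard errors of 0.15 and 0.34, and -0.11 and 0.20 after scaling. Gabarapl2 shared 17.0% of its 50-base windows with 4 genes elsewhere, among them processed pseudogenes, and was the least even of the 5 between mice.

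A ratio of related genes within a library is not moved by the scale of that library, and 11 such ratios were tested by exact permutation of the mice between the groups (924 assignments, which cannot give a p below 0.002165). The log2 ratio of Map1lc3a to Map1lc3b was 0.10 to 0.48 in controls and 0.44 to 0.93 in CKO mice, with means of 0.29 and 0.59. Among the CKO libraries, 4 of 6 lay above all controls. The difference of 0.29 log2 units had an exact two-sided p of 0.0173, and 0.0952 after Benjamini-Hochberg adjustment over the 11 ratios. Without control 2 or control 4 the adjusted exact p was 0.0476, and without any other mouse it was 0.0952 or more. Seen as shares of the summed FPKM of the 5 family members, Map1lc3a took 33.0% ± 3.19 in controls and 36.8% ± 3.08 in CKO mice (SD, n = 6, exact permutation p = 0.0584). The share of Map1lc3b was 26.8% ± 1.55 and 24.4% ± 1.58 (SD, n = 6, exact permutation p = 0.0303, adjusted over the 5 shares 0.146). Gabarap took 27.6% and 27.4%. Neither the ratio nor the shares passed the adjusted threshold.

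The cargo receptors held the 2 genes that fell in the CKO at an adjusted threshold, both of them only after scaling. Sqstm1 encodes p62, which binds ubiquitin and LC3, and was the most abundant of the 40 genes per length in controls. Its FPKM as deposited was 52.3, 71.5 and 94.0 in controls (lowest, median and highest) and 46.1, 57.7 and 65.2 in CKO mice. Every CKO value lay below the control median, and 3 of 6 lay below all controls. As deposited, the log2 fold change was -0.29 ± 0.14 (SE, limma adjusted p = 0.263). After scaling, Sqstm1 was 61.1, 74.8 and 84.3 in controls and 42.7, 52.7 and 61.8 in CKO mice, so that 5 of 6 CKO mice lay below all controls, and it fell by 0.48 ± 0.11 on the log2 scale (SE, adjusted p = 0.0419). With quantile normalization in place of scaling the log2 fold change was -0.32 and the adjusted p 0.198, past the unadjusted threshold only. With each mouse left out in turn, the scaled difference of Sqstm1 kept its sign in all 12 fits and passed the adjusted threshold in 4 of 12, those without control 1, control 2, CKO 4 or CKO 5, and the adjusted p reached 0.103 in the others. The locus of Sqstm1 overlaps Mrnip, with which 20.4% of its 50-base windows are shared, and whether strand was used in counting is not given in the sources used here.

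Optn encodes optineurin, a receptor for mitochondria and bacteria marked with ubiquitin. As deposited it was 18.9, 21.7 and 33.4 FPKM in controls and 13.4, 18.2 and 23.1 in CKO mice. The groups overlapped, and 3 of 6 CKO values lay below all controls. The log2 fold change was -0.42 ± 0.16 (SE, n = 6 and 6, limma adjusted p = 0.162). After scaling, Optn was 22.1, 24.0 and 32.8 in controls and 13, 16.3 and 21.3 in CKO mice. All 6 CKO values then lay below all 6 controls, a pattern shown by 0.733% of all genes in that direction, and no other of the 40 genes separated the groups in this way in either fit. Optn fell by 0.61 ± 0.12 on the log2 scale after scaling (SE, adjusted p = 0.0243), and it passed the adjusted threshold in 8 of 12 fits with 1 mouse left out, the exceptions being those without control 3, control 4, CKO 1 or CKO 3 (adjusted p up to 0.0633). The slow-twitch marker sum was highest in CKO 6, CKO 1 and CKO 3, at 265.6, 120.4 and 76.8 FPKM. Optn as deposited was 19.9, 19.5 and 16.9 FPKM in these mice and 13.4 to 23.1 in the other 3, and the part of fiber type in its values was not tested.

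The other 3 receptors passed neither threshold in either fit. Nbr1, a p62-like receptor, was 10.96 ± 1.30 FPKM in controls and 12.2 ± 1.04 in CKO mice (SD, n = 6), with a log2 fold change of 0.16 as deposited and -0.03 after scaling. Bnip3 and Bnip3l, receptors of mitochondria on the outer membrane, had log2 fold changes of 0.13 and 0.00 as deposited (adjusted p = 0.541 and 0.996), and -0.06 and -0.18 after scaling. Both share sequence with copies elsewhere (48.9% of windows for Bnip3 and 23.4% for Bnip3l), which leaves their levels uncertain. A difference between Sqstm1 or Optn and the other receptors was not tested.

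The genes for TFEB and TFE3 passed neither threshold in either fit. Tfeb was 3.37, 4.06 and 5.14 FPKM in controls and 3.63, 3.89 and 6.21 in CKO mice (log2 fold change 0.09 ± 0.15, SE, limma adjusted p = 0.765), and 4 of 6 CKO values lay below the control median. After scaling, its log2 fold change was -0.10. Tfe3, at 0.684 ± 0.160 FPKM in controls and 0.806 ± 0.235 in CKO mice (SD, n = 6), was the least abundant of the 40 per length and had a log2 fold change of 0.19 ± 0.20 (SE).

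**Figure D3:**
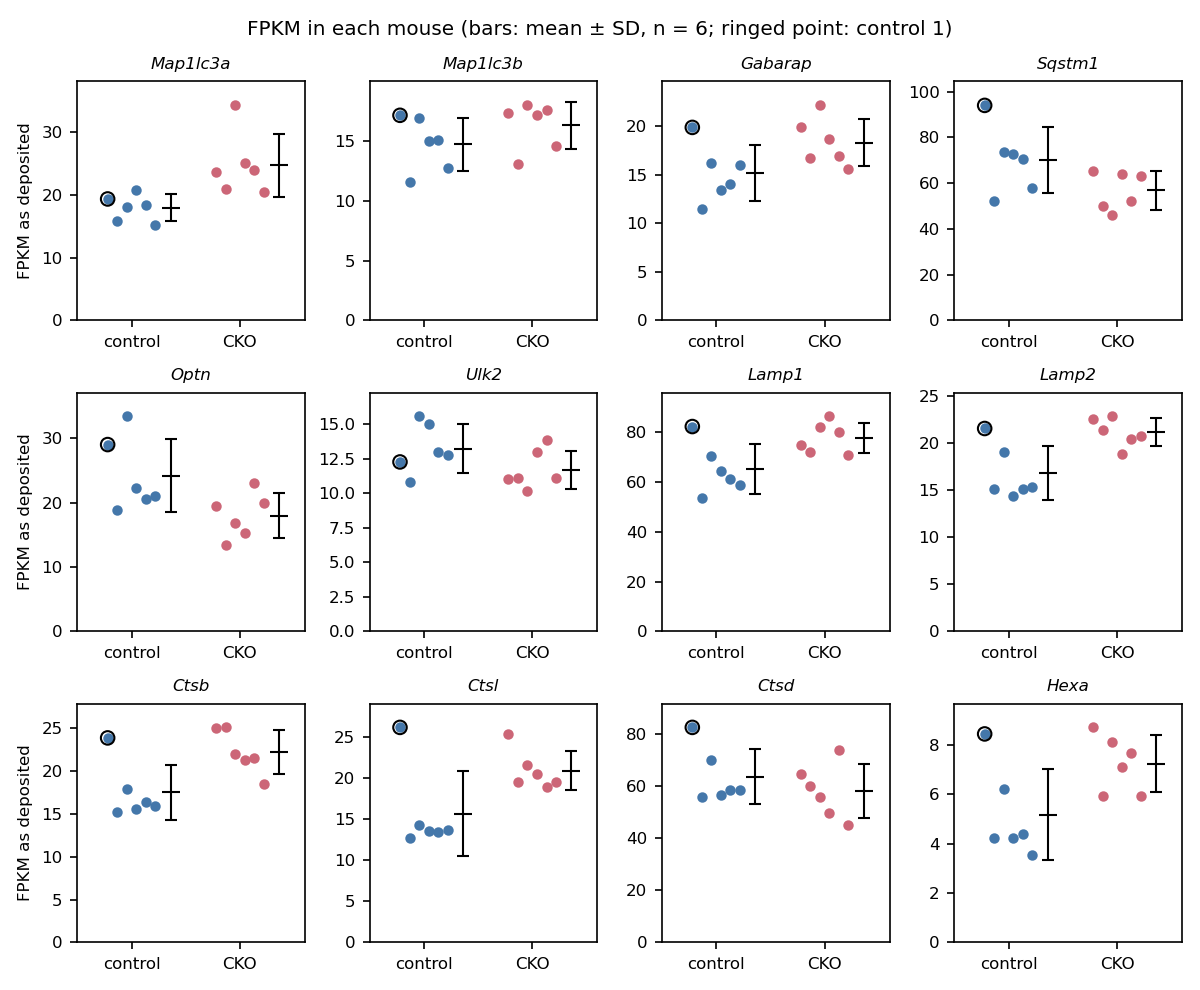
FPKM as deposited (y axis) in each of the 6 control (blue) and 6 CKO (red) mice for 12 of the genes, with the mean ± SD beside each group and control 1 ringed. For Ctsl and Ctsb the other 5 controls lie below every CKO mouse, and control 1 lies at or above the level of the CKO mice. For Lamp2 and Hexa control 1 is the highest control, and control 3 also lies within the range of the CKO mice. Optn and Sqstm1 are lower in CKO mice with overlapping groups.

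Of the 10 lysosomal genes, 5 were higher in the CKO as deposited at an unadjusted p under 0.05 and none was lower, against 18.1% and 1.76% of all genes, with a median log2 fold change of 0.30 against 0.18 over all genes. After scaling 2 were higher and 1 was lower, against 6.63% and 7.4%, and the median was 0.12 against 0.01. Lamp1 and Lamp2 encode the main glycoproteins of the lysosomal membrane. Lamp1 was 53.6, 62.9 and 82.2 FPKM in controls and 70.7, 77.2 and 86.2 in CKO mice, so that all 6 CKO values lay above the control median. Its log2 fold change was 0.26 ± 0.11 (SE, limma adjusted p = 0.194) as deposited and 0.07 after scaling (adjusted p = 0.76). Lamp2 was 14.4, 15.3 and 21.5 FPKM in controls and 18.8, 21.1 and 22.8 in CKO mice. Control 1 held the highest control value, and 2 of 6 CKO values exceeded it. The log2 fold change of Lamp2 was 0.34 ± 0.11 (SE, adjusted p = 0.111) as deposited and 0.16 after scaling (adjusted p = 0.376). Without control 1 it was 0.42 with the FPKM as deposited (adjusted p = 0.0154) and 0.19 after scaling (adjusted p = 0.204).

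The cathepsins are acid proteases of the lysosome. Ctsl, encoding cathepsin L, was 12.7, 13.6 and 26.1 FPKM in controls and 18.8, 19.99 and 25.3 in CKO mice. Control 1 was above every CKO mouse, and the other 5 controls, at or below 14.3 FPKM, were below every CKO mouse. Its log2 fold change was 0.46 ± 0.16 as deposited (SE, limma adjusted p = 0.131) and 0.27 ± 0.12 after scaling (adjusted p = 0.316). Without control 1 it was 0.62 as deposited (adjusted p = 0.00219) and 0.38 after scaling (adjusted p = 0.0182). Ctsb, encoding cathepsin B, was 15.3, 16.1 and 23.9 FPKM in controls and 18.5, 21.7 and 25.1 in CKO mice, again with all 6 CKO values above the control median. The log2 fold change of Ctsb was 0.35 ± 0.12 as deposited (SE, adjusted p = 0.129) and 0.17 after scaling (adjusted p = 0.457). Hexa encodes the alpha subunit of the enzyme that breaks down gangliosides. It was 3.54, 4.30 and 8.43 FPKM in controls and 5.91, 7.38 and 8.70 in CKO mice (log2 fold change 0.53 ± 0.19, SE, adjusted p = 0.142), and 0.34 ± 0.14 after scaling (adjusted p = 0.303).

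Ctsd, encoding the aspartic protease cathepsin D, was the only one of the 10 lysosomal genes with a negative log2 fold change as deposited. It was 55.6, 58.5 and 82.5 FPKM in controls and 45.1, 57.9 and 73.8 in CKO mice, and the groups overlapped. As deposited its log2 fold change was -0.13 ± 0.13 (SE, limma adjusted p = 0.592). After scaling, 5 of 6 CKO values lay below all controls, and the log2 fold change was -0.32 ± 0.11 (SE, adjusted p = 0.18, and 0.0452 without CKO 5). The log2 ratio of Ctsd to Ctsb within a library was 1.79 to 1.96 in controls and 1.22 to 1.78 in CKO mice. All 6 CKO libraries lay below all controls, and Ctsd stood at 3.63 times Ctsb in controls and 2.59 times in CKO mice (geometric means of the per-length levels). The ratio fell by 0.49 log2 units (exact two-sided permutation p = 0.00217, the smallest this test can give, adjusted p = 0.0238 over the 11 ratios). It stayed past the adjusted threshold in all 12 sets with 1 mouse left out, with differences of -0.57 to -0.46. Part of both transcripts overlaps another gene at the same locus, 36.6% of windows for Ctsd and 15.4% for Ctsb (with Fdft1), and the part of this overlap in the ratio was not tested.

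**Figure D4:**
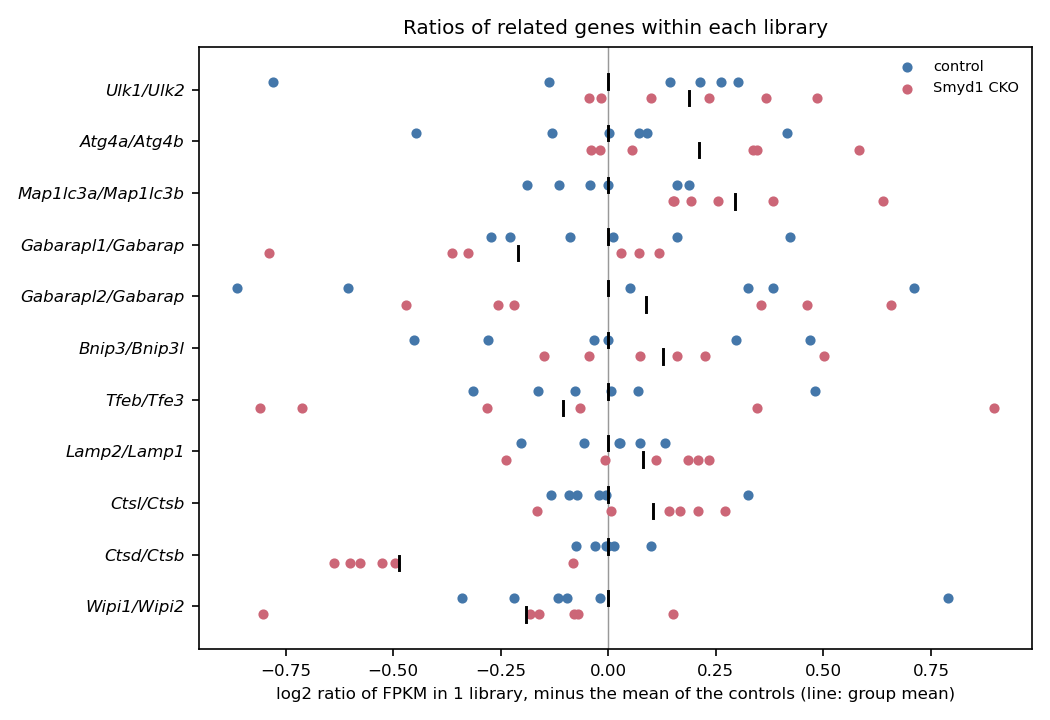
Log2 ratio of 2 related genes within each library minus the mean of the controls (x axis, log2 units) for 11 gene pairs; blue points are controls, red points CKO mice and black lines group means. The 6 CKO libraries lie left of all controls for Ctsd/Ctsb, by 0.49 on average, and 4 of 6 lie right of all controls for Map1lc3a/Map1lc3b, while the groups overlap for the other 9 pairs.

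The other 9 ratios had exact permutation p-values from 0.223 to 0.771. Among them Ctsl/Ctsb (difference 0.10) and Lamp2/Lamp1 (0.08) differed by less than the spread between mice. The remaining lysosomal genes were Ctsa, Ctsk, Ctss and Gaa, with log2 fold changes of 0.23, 0.53, 0.13 and 0.15 as deposited. After scaling these were 0.04, 0.35, -0.05 and -0.04, and none passed the unadjusted threshold in limma in either fit. Ctsa, encoding protective protein, a carboxypeptidase, reached 0.35 without control 1 as deposited (limma adjusted p = 0.0381), against 8.56% of all genes called higher there. Without control 1 and after scaling it was 0.12 (adjusted p = 0.582). Ctsk and Ctss, cathepsins that are abundant in osteoclasts and macrophages, varied widely between mice, from 1.10 to 4.73 FPKM and 1.51 to 4.77 FPKM in controls, with control 1 the highest for both. Gaa, the acid alpha-glucosidase that breaks down glycogen in the lysosome, was 8.28 ± 1.10 FPKM in controls and 9.23 ± 1.57 in CKO mice (SD, n = 6). None of the 12 macrophage markers tested was called in either direction, and Fcgr1 was at 0 in some libraries. With control 1 set aside, 5 of 6 CKO mice had a macrophage marker sum above the other controls and 6 of 6 had a higher fibroblast marker sum. Both sums are of FPKM as deposited. With all 12 mice, 2 of the 8 fibroblast markers were higher and 0 lower at an unadjusted p under 0.05 as deposited, against 18.1% and 1.76% of all genes. After scaling 1 was higher and 0 lower, against 6.63% and 7.4%. Col1a1 had a negative log2 fold change in both fits, -0.21 and -0.40. The part of these cells in the lysosomal values was not tested.

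The other genes of the pathway were read from a list of 123 genes, of which 122 were tested. As deposited, 25 were higher and 2 lower at an unadjusted p under 0.05 (against 18.1% and 1.76% of all genes), none at the adjusted threshold, and the median log2 fold change was 0.16. After scaling, 7 were higher and 8 lower (against 6.63% and 7.4% of all genes), and 1 was lower at the adjusted threshold (against 0.701%), so that these counts are near those of all genes. Lamtor2, a subunit of the complex that holds mTORC1 at the lysosome, was the only one of the 122 whose 6 CKO values lay above all controls as deposited, against 2.23% of all genes, and after scaling its groups overlapped, with 5 of 6 CKO values above all controls. It was 5.30 ± 1.16 FPKM in controls and 8.34 ± 2.41 in CKO mice as deposited (SD, n = 6, log2 fold change 0.63, limma adjusted p = 0.0734). Uvrag, a Beclin 1 partner, had a log2 fold change of 0.60 (adjusted p = 0.0715) and Tecpr1, which helps autophagosomes mature, 0.42 (adjusted p = 0.122). Park2, the ubiquitin ligase that marks damaged mitochondria, had the largest log2 fold change of the list at 1.03 (adjusted p = 0.0828), from 0.851 ± 0.208 FPKM in controls to 2.04 ± 1.27 in CKO mice (SD, n = 6). The membrane fusion gene Vamp8 (0.43, adjusted p = 0.0844), the proton pump subunit Atp6v1h (0.41, adjusted p = 0.15), the potassium channel gene Tmem175 (0.50, adjusted p = 0.197) and the acid lipase gene Lipa (0.64, adjusted p = 0.101) had the smallest p of their groups. After scaling the log2 fold changes of these 8 ran from 0.23 to 0.85. Rab7, the small GTPase of late endosomes, was named after its values were seen: after scaling it fell from 20.2 ± 1.52 to 13.7 ± 3.48 FPKM (SD, n = 6), by 0.59 on the log2 scale (adjusted p = 0.0386), with 5 of 6 CKO values below all controls. As deposited its log2 fold change was -0.40 (adjusted p = 0.147).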

How the data were processed

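RNA from the tibialis anterior of 12 mice (6 per group) was depleted of ribosomal RNA from 100 ng, and 1 library per mouse was sequenced. The authors aligned the reads with bowtie2 and TopHat2 2.0.10 to mm9, allowing at most 2 mismatches, kept only uniquely mapped reads, and made the deposited FPKM with Cufflinks 2.1.1 (versions and build from the submitters' processing notes, annotation not given in the sources used here). Each file held 23950 rows, of which 27 with a date in place of the symbol were left out. Groups were compared with limma 3.58.1 in R 4.3.3 on log2(FPKM + 0.1), with an intensity trend, for the 12695 genes that reached 0.1 FPKM in 6 or more libraries, and adjusted by the Benjamini-Hochberg method over all of them, on the FPKM as deposited and after median-ratio scaling (12692 genes). Fold changes are on this log2(value + 0.1) scale, which understates those of low genes. Ratios within a library were tested by exact permutation, and the script was tested on simulated data. The members and lists were chosen with earlier results of these data known. Full values are given for members at an unadjusted p under 0.05 in either fit, members whose groups did not overlap, and the member with the highest control mean in each class. From the wider list, the gene with the smallest p in each class is given with its log2 fold change and adjusted p as deposited. Alternatives were quantile normalization, no filter or a cutoff of 1 FPKM, 1 as the pseudocount, the replicate number as a block, no trend, and each mouse left out. Depth in reads is unknown, so no counting interval is given. The authors' own comparison used counts with DESeq and was not repeated, since the values used here are FPKM. Shared sequence was found with 50-base windows of GENCODE M21 transcripts.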

Additional observations from a re-analysis of the deposited data

Results flagged for a closer look

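In 12 of 102 groups of 6 mice (40 genes and 11 ratios in each group), the highest or lowest value stood farther from the rest than Dixon's 95% criterion allows, where chance flags about 1 in 20 groups. Control 1 was the value that stood apart in 5 of the 12. It had the highest FPKM of the controls for Ctsa (6.18, next 4.01), Ctsb (23.9, next 17.9), Ctsl (26.1, next 14.3) and Ctsk (4.73, next 2.39), and the highest log2 ratio of Ctsl to Ctsb (0.13, next -0.20). All 4 of these genes encode lysosomal proteases, and control 1 was also the control with the highest macrophage and fibroblast marker sums. The part of those cells was not tested.

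CKO 5 stood apart in 4 of the 12, with the highest CKO values of Becn1 (13.9 FPKM, next 11.3) and Bnip3 (20.9 FPKM, next 18.3), the highest log2 ratio of Ctsd to Ctsb (1.78, next 1.36) and the lowest log2 ratio of Wipi1 to Wipi2 (0.10, next 0.72). Its Ctsd to Ctsb ratio was still below that of every control. CKO 3 had 34.3 FPKM of Map1lc3a (next 25.1). Control 5 had the lowest control value of Gabarapl1 (4.51 FPKM, next 5.68), and control 2 the highest control log2 ratio of Wipi1 to Wipi2 (1.70, next 0.89).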

How the results depend on the processing

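For all genes tested, median-ratio scaling, quantile normalization, and scaling with the replicate block gave 841, 813 and 855 genes higher and 939, 823 and 943 lower at an unadjusted p under 0.05, and 97, 101 and 91 higher and 89, 66 and 82 lower at an adjusted p under 0.05. Without a filter 170 were higher at the adjusted threshold. Of the 40 genes, scaling and scaling with the block gave 2 and 3 higher and 4 lower in both, quantile normalization 6 higher (Map1lc3a, Lamp1, Lamp2, Ctsb, Ctsl and Hexa) and 3 lower, and the block alone 9 higher and 2 lower at the unadjusted threshold. At the adjusted threshold 2, 1 and 2 were lower with scaling, quantile normalization (Optn) and scaling with the block. Of the wider list, the same 3 settings gave 7, 7 and 8 higher and 8, 7 and 7 lower unadjusted, and 1 lower adjusted in each.

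With 1 mouse left out, the adjusted counts over all genes ran from 88 to 1075 higher and 18 to 69 lower as deposited, and from 46 to 182 and 34 to 199 after scaling. For the 40 genes the unadjusted counts ran from 6 to 17 higher and 1 to 2 lower as deposited and from 0 to 4 higher after scaling, and the adjusted counts from 0 to 7 higher as deposited, and from 0 to 1 higher and 0 to 3 lower after scaling. For the wider list they ran from 13 to 37 higher and 1 to 3 lower, after scaling 5 to 15 and 5 to 14, and adjusted from 0 to 15 higher and 0 to 1 lower, after scaling 0 to 1 and 0 to 2. The highest counts of higher genes as deposited came without control 1.

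Signs turned for Atg12 (-0.15 with scaling and with scaling and the block, -0.13 with quantile normalization, -0.037 to 0.11 with a mouse left out) and Tfeb (-0.10, -0.094 with quantile normalization, -0.012 to 0.15). The log2 ratio of Gabarapl2 to Gabarap turned to -0.0684 with a pseudocount of 1 and ran from -0.085 to 0.23 with a mouse left out, and that of Tfeb to Tfe3 from -0.31 to 0.036. Over all 40 genes, scaling reversed the sign of 15 and quantile normalization of 14, while the block and the fit without the trend reversed none. The causes were not tested.

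Whether the replicate numbers pair the mice could not be settled. The deviations of same-numbered mice correlated by -0.09 to 0.16, with a mean of 0.04 against -0.01 for mice of different number. The correlation was over 0.1 in 2 of 6 pairs, and 2 controls and 3 CKO mice correlated best with their own number. With the replicate block 4 genes of the wider list were higher at an adjusted p under 0.05, beside 272 of all 12695 genes. Of the ratios, 1 to 2 passed the adjusted threshold with a mouse left out, 2 with quantile normalization and 0 with the block, where exact sign flips over 6 pairs cannot give a p below 0.0312. Unknown depth in reads limits what can be said of genes under 1 FPKM.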

Other observations

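Different subunits of the lysosomal proton pump, chosen here after their values were seen, passed the unadjusted threshold in the 2 fits. As deposited, 3 of the 15 pump genes were higher in the CKO at an unadjusted p under 0.05, against 18.1% of all genes. These were Atp6v1a, Atp6v1h and Atp6ap2, with log2 fold changes of 0.38, 0.41 and 0.46 from limma (0.20, 0.23 and 0.28 after scaling). After median-ratio scaling, 3 of the 15 were lower at that threshold, against 7.4% of all genes, and 0 were higher. These were Atp6v0a1, Atp6v1b2 and Atp6v1g1, with log2 fold changes of -0.42, -0.25 and -0.39 (adjusted p = 0.164, 0.352 and 0.133), against -0.23, -0.07 and -0.21 as deposited. Among the 12 genes of membrane fusion, Snap29, Vps41, Epg5 and Rab7 were lower after scaling at the unadjusted threshold, against 7.4% of all genes. Vamp8 alone was higher, against 6.63%. Rragd, a GTPase that carries amino acid signals to mTORC1, went from 33.3 ± 3.23 to 23.6 ± 4.94 FPKM after scaling (SD, n = 6, log2 fold change -0.52, limma adjusted p = 0.0531), with 5 of 6 CKO values below all controls, and had a log2 fold change of -0.33 as deposited (adjusted p = 0.184).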
